A study of Mus musculus with 4 samples.

Results

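The genes described here make testosterone in the testis: Scarb1, Star, Cyp11a1, Fdx1, Hsd3b1, Cyp17a1, Hsd17b1 and Hsd17b3, together with the hormone receptor Lhcgr and the peptide hormone Insl3. Every probe set whose only gene symbol in the array annotation was one of these 10 names was taken. That gave 14 probe sets for 8 genes, out of 18193 genes that had such a probe set on the array. Lhcgr had none, and the 2 probe sets that name Insl3 name Jak3 as well, so neither gene was analysed here. One probe set of Cyp11a1 lay under the level filter, and the other 13 were tested.

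The samples were testes of 129 strain mice at 2 dpp (days post partum), kept for 24 h in organ culture in medium with 10% fetal bovine serum. The vehicle group received dimethyl sulfoxide, and the treated group WIN 18,446 at 1 µM, an inhibitor of the retinaldehyde dehydrogenases that make retinoic acid. Total RNA was amplified and measured on Affymetrix Mouse Genome 430 2.0 arrays, 2 for each group, and values are log2 levels. The labels give no genetic change in either group and leave it unsaid whether a numbered sample was an animal, a pool or a culture. The spread behind each p-value is therefore that between these samples and may be technical, and precision is limited by the number of arrays.

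Leydig cells take up cholesterol, carry it into the mitochondrion, cut its side chain to give pregnenolone, and turn this into androgens in a short series of steps. Luteinizing hormone drives the pathway through Lhcgr and cyclic AMP, and the nuclear receptor Nr5a1 (steroidogenic factor 1) binds the promoters of most of its genes. Leydig cells of the fetal type are still present around birth. They express little of the enzyme for the last step, and in the fetal mouse testis Hsd17b1 and Hsd17b3 are known as Sertoli cell genes, whose products reduce the androstenedione made by Leydig cells. The 10 genes therefore do not all mark one cell type.

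After a day with WIN 18,446, the genes that supply cholesterol and begin steroid synthesis had slightly lower levels, and the pair of reductases at the end of the pathway had higher ones. By the brightest probe set of each gene, Hsd17b1 was 4.27-fold and Hsd17b3 1.89-fold higher, and the other 6 genes were 1.08-fold to 1.62-fold lower. The treated and vehicle arrays did not overlap for 7 of the 8 genes, 2 higher and 5 lower. Across the 10970 genes tested the groups did not overlap in 56.6%, with 24.8% higher and 31.8% lower, and no test was made of the excess among these 8. None passed the test: limma called 0 of the 8 genes and 0 of the 13 probe sets at an adjusted p under 0.05, against 6.40% of all genes and 5.18% of all probe sets tested. At an unadjusted p under 0.05 there were 6 of 8 genes and 9 of 13 probe sets, against 25.0% and 22.0% of those tested. The 6 genes became 3 when the fit had no level filter. They also became 3 when it had no variance trend, where the count over all probe sets went from 4598 to 4227. The median log2 difference was -0.25 over the 8 genes and -0.02 over all genes tested (written as WIN 18,446 minus vehicle throughout). In bulk tissue, fewer cells of a type and less RNA per cell cannot be told apart.

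**Figure D1:**
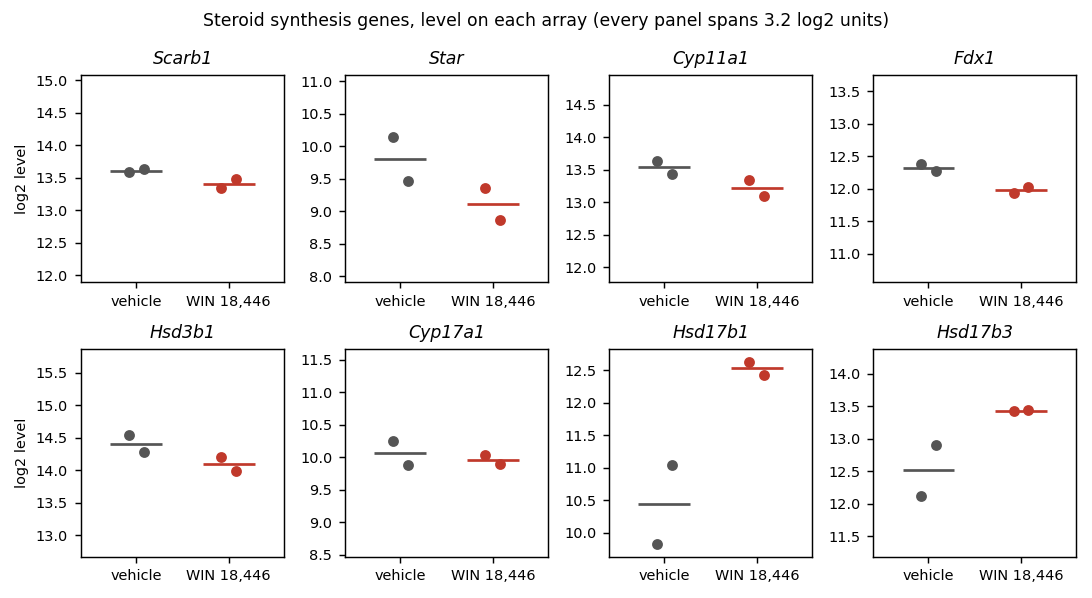
Log2 level of the brightest probe set of each gene on each of the 4 arrays (points) with the group mean (bars); every panel spans the same range, and levels are not comparable between panels. Hsd17b1 and Hsd17b3 were higher on both treated arrays, with vehicle arrays 1.22 and 0.78 log2 units apart, while Scarb1, Star, Cyp11a1, Fdx1 and Hsd3b1 were lower on both treated arrays by 0.20 to 0.69 on average.

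The supply of cholesterol came first. Scarb1 encodes the receptor that takes cholesterol from high-density lipoprotein. Its brightest probe set read 13.58 and 13.63 with vehicle and 13.34 and 13.48 with WIN 18,446. Both treated values lay below both vehicle values, and the log2 difference was -0.20 (SE 0.07, 95% interval -0.38 to -0.02, adjusted p = 0.193). The narrowest spread of any tested probe set of these genes was in another of Scarb1, which read 12.67 and 12.68 with vehicle and 12.42 on both treated arrays (difference -0.25, adjusted p = 0.107). The remaining Scarb1 probe set differed by -0.13 (adjusted p = 0.392). Leaving out treated array 1 brought the brightest probe set to -0.13, and leaving out vehicle array 2 brought the last to -0.06. Thus the 3 probe sets gave one sign, with differences of at most 0.25 log2 units. The names of 2 of them end in _x_at, by which the maker marks probes that may also bind other transcripts.

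Star moves cholesterol to the inner mitochondrial membrane, the step that limits the rate of acute steroid synthesis. Its brightest probe set read 10.15 and 9.46 with vehicle and 9.36 and 8.86 with WIN 18,446. The treated arrays were lower, but vehicle array 2 stood only just above treated array 1. The difference was -0.69 (SE 0.30, interval -1.44 to 0.06, adjusted p = 0.258), about the size of the gap between the vehicle arrays (0.69). Leaving out vehicle array 1 gave -0.35, and leaving out vehicle array 2 gave -1.04. Another probe set of Star was steadier, at 9.06 and 8.86 against 8.44 and 8.23, with a difference of -0.63 (SE 0.18, adjusted p = 0.124). The dimmest of the Star probe sets overlapped between groups, at 5.80 and 5.36 against 5.57 and 5.72 (difference 0.06, adjusted p = 0.922), and the sign of that difference turned without vehicle array 2 (-0.16) and without treated array 2 (-0.01). The Star probe sets therefore disagreed, with a lower treated level in the brighter pair only.

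Cyp11a1, the side chain cleavage enzyme, commits cholesterol to steroid synthesis. Its brightest probe set read 13.64 and 13.44 with vehicle and 13.35 and 13.09 with WIN 18,446. The groups did not overlap, and the difference was -0.32 (SE 0.12, interval -0.61 to -0.03, adjusted p = 0.195). It was -0.19 when treated array 2 was left out and -0.45 when treated array 1 was. A dimmer probe set read 8.16 and 8.03 against 7.14 and 7.69, a difference of -0.68 (adjusted p = 0.202), with the treated arrays further apart than the vehicle arrays (-0.40 when treated array 1 was left out). The probe set of Cyp11a1 under the level filter read 2.35 on vehicle array 1 and 2.22 to 2.23 on the other arrays. That is close to 2.22, the highest reading among the array's controls for bacterial genes, and no difference is drawn from it.

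Fdx1 encodes ferredoxin, which passes electrons to Cyp11a1. It read 12.37 and 12.28 with vehicle and 11.94 and 12.02 with WIN 18,446. Arrays within a group lay within 0.10 log2 units of each other, and the groups were well apart. The difference of -0.34 (SE 0.08, interval -0.55 to -0.13) had the smallest adjusted p among the genes with a lower treated level (0.0880). Leaving out any array kept it between -0.39 and -0.30.

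Hsd3b1 converts pregnenolone to progesterone. It read 14.54 and 14.28 with vehicle and 14.21 and 14.00 with WIN 18,446. Both treated arrays were lower, by a margin smaller than the gap within either group, and the difference was -0.31 (SE 0.12, interval -0.60 to -0.01, adjusted p = 0.210). Leaving out vehicle array 1 gave -0.18, and leaving out vehicle array 2 gave -0.44. Hsd3b1 belongs to a family of closely related genes, and whether transcripts of its relatives bind these probes was not tested. The probe sets of Hsd3b2 and Hsd3b3 read at most 2.07, below the bacterial controls, on every array.

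Cyp17a1 turns progesterone into androstenedione. It read 10.26 and 9.88 with vehicle and 10.04 and 9.89 with WIN 18,446. It was the 1 gene of the 8 whose groups overlapped, and its difference of -0.11 (SE 0.17, interval -0.54 to 0.33, adjusted p = 0.772) turned positive, to 0.08, without vehicle array 1. The interval leaves room for a level 0.69 to 1.26 times that of vehicle, so these arrays do not show that Cyp17a1 was unaltered.

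**Figure D2:**
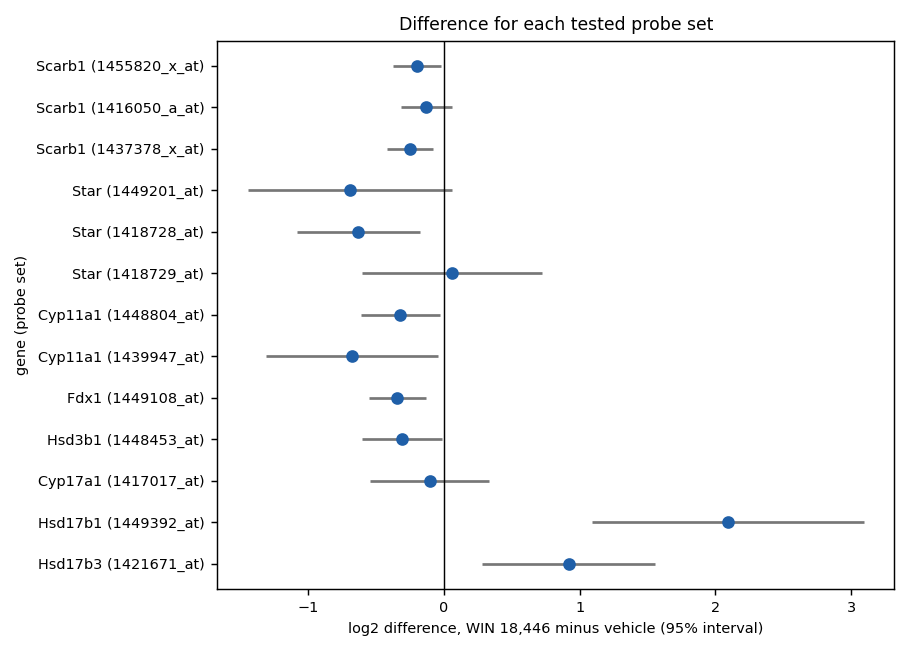
Log2 difference between the treated and vehicle means for each of the 13 tested probe sets (points), with the 95% interval of the moderated fit (bars). The 2 reductase probe sets lie to the right of 0 at 2.09 and 0.92, and 10 of the other 11 lie to its left, between -0.69 and -0.11.

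Hsd17b1 and Hsd17b3 were the genes with higher treated levels. Hsd17b1, which reduces estrone to estradiol and, in the mouse, androstenedione to testosterone, read 9.83 and 11.05 with vehicle and 12.63 and 12.43 with WIN 18,446. The treated arrays agreed closely, while the vehicle arrays were 1.22 log2 units apart, with vehicle array 1 the lower. The difference of 2.09 (SE 0.39, interval 1.09 to 3.09) was larger than that gap and exceeded the absolute difference of 99.0% of the probe sets tested. Its adjusted p was 0.0519, just outside the threshold, and ranged from 0.0167 to 0.244 over the alternatives. It shrank to 1.48 when vehicle array 1 was left out and grew to 2.70 when vehicle array 2 was.

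Hsd17b3, the enzyme that reduces androstenedione to testosterone, read 12.12 and 12.90 with vehicle and 13.42 and 13.44 with WIN 18,446. Again the treated arrays were nearly equal and vehicle array 1 was the lowest of the 4. The difference was 0.92 (SE 0.25, interval 0.28 to 1.55, adjusted p = 0.113), or 0.53 without vehicle array 1 and 1.31 without vehicle array 2. Vehicle array 1 was thus low for both reductases and high for Star, Cyp11a1, Fdx1, Hsd3b1 and Cyp17a1. Treated array 1 was likewise the higher of its pair for Star, Cyp11a1, Hsd3b1 and Cyp17a1, but the lower for Fdx1. Each of the reductases had 1 probe set, so there was no second measurement of either within an array.

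Among all other genes tested, those whose levels over the 4 arrays, each centred on its own mean, lay nearest to Hsd17b1 were Ticrr, Dlgap5, Mtfr2, Sh3bgr and Eme1. Their root mean square difference from it was 0.15 to 0.20 log2 units. Ticrr acts in the start of DNA replication, Dlgap5 in the mitotic spindle and Eme1 in DNA repair. No such role is claimed for Mtfr2 or for Sh3bgr, which had the largest difference among these genes (2.16), and a shared role was not tested. Ticrr read 6.24 and 7.10 with vehicle and 8.68 and 8.54 with WIN 18,446, low on vehicle array 1 as Hsd17b1 was. Over only 4 arrays this likeness is a description.

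The promoters show what the pathway's control region looks like in genes on either side of this contrast. RefSeq's table for GRCm38.p6 held the start sites of 6 of the 10 genes, Cyp11a1 with 2. The 250 bases before each start were searched on both strands for AGGTCA and CAAGGT, which overlap in the Nr5a1 binding sequence. Of the 7 windows 5 held a match, against 22.2% of all 32851 windows of that length. Among the 5 were those of Lhcgr and Insl3, whose levels were not analysed here. The sites all read along the gene's strand. The windows below are of the measured genes, and capitals mark the match; the other window of Cyp11a1 held none. They are Fdx1 at chr9:51963603-51963852 (minus strand), with CAAGGT beginning 73 bases before the start; the second start of Cyp11a1 at chr9:58014702-58014951 (plus strand), with AGGTCA beginning 28 bases before it; Hsd17b3 at chr13:64089202-64089451 (minus strand), with CAAGGT beginning 99 bases before it; and Hsd3b1 at chr3:98859795-98860044 (minus strand), with no match.
Fdx1: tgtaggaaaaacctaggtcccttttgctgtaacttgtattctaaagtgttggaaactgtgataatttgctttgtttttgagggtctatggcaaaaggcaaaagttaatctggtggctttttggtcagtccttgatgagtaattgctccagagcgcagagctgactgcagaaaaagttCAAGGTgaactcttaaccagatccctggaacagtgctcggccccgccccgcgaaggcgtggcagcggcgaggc
Cyp11a1: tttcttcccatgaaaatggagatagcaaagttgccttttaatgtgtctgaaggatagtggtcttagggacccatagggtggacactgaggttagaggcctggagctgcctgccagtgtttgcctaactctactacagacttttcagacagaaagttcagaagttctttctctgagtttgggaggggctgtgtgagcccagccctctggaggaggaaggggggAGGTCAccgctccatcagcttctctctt
Hsd17b3: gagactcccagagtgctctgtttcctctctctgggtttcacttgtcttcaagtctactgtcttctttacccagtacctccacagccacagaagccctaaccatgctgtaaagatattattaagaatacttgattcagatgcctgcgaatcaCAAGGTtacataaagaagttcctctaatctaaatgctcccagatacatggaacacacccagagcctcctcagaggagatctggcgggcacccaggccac
Hsd3b1: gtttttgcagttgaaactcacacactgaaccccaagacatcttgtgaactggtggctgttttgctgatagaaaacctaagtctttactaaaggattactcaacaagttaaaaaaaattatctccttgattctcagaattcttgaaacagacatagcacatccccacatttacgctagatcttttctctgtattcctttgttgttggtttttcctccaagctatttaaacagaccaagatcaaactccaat
Matches stood before a gene that was lower (Fdx1) and before one that was higher (Hsd17b3). A match is not a binding site, and its absence says only that these letters are not in the window.

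Other genes of the pathway were taken from a list of 89, of which 73 had a probe set with 1 symbol and 56 were tested. Limma called 3 higher (Nr4a1, Stard5, Gper1), 3 lower (Nr0b1, Gata6, Shbg) and 50 not, a share of 10.7% against 6.40% of all genes tested (2.94% higher and 3.46% lower). The median log2 difference was -0.07, against -0.02 for all genes. At an unadjusted p under 0.05 there were 19 of the 56, against 25.0% of all genes tested. Without vehicle array 1 and without vehicle array 2, each called gene kept its direction (Nr0b1 -3.66 and -3.72, Nr4a1 0.68 and 0.75). With 1 vehicle array the spread comes from the treated arrays alone, so calls are not compared here.

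Among 13 transcription factors 1 rose, 2 fell and 10 were not called. Nr0b1, a corepressor of Nr5a1, read 11.68 and 11.62 with vehicle and 8.09 and 7.82 with WIN 18,446, a 12.9-fold fall (adjusted p = 0.00387). No tested gene of the pathway had a larger difference, and the gap between groups was far wider than that within them. Gata6, a factor that acts on steroid gene promoters, fell by 0.84 log2 units (adjusted p = 0.0311), and its second probe set gave -1.05 (adjusted p = 0.125). The Gata6 call was lost without a variance trend (adjusted p = 0.0745; 0.0116 to 0.325 over all alternatives). Nr4a1, an orphan receptor induced by luteinizing hormone that acts on steroid enzyme promoters, rose by 0.71 (adjusted p = 0.0419). Its call was lost under 8 of 14 alternatives, among them equal array medians (adjusted p = 0.0521; 0.0198 to 0.333 over all of them). Cebpb differed by -0.98 (adjusted p = 0.200). Nr5a1 itself read 12.47 and 12.26 against 12.25 and 12.28, overlapping between groups (difference -0.10, adjusted p = 0.597).

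None of 13 genes of cyclic AMP signalling was called by limma. At an unadjusted p under 0.05 there were 5 of them, against 25.0% of all genes tested. The adenylate cyclases Adcy6 and Adcy9 differed by -0.57 and -0.35, the phosphodiesterase Pde8b by -0.43 and the anchoring protein Akap1 by 0.70 (adjusted p-values 0.0611, 0.152, 0.167 and 0.0660). Of 14 genes of cholesterol supply 1 rose. Stard5, a cytosolic sterol-binding relative of Star, read 7.35 and 7.44 with vehicle and 8.72 and 9.00 with WIN 18,446 (difference 1.46, adjusted p = 0.0254), and its second probe set rose by 2.02 (adjusted p = 0.0376). Stard3, another relative, differed by -0.38, the acyl-CoA-binding protein Dbi by -0.11 and the oxysterol-binding protein relative Osbpl2 by 0.17 (adjusted p = 0.196, 0.350 and 0.329). The 3 genes of electron transfer tested, Cyb5a, Cyb5b and Cyb5r3, differed by 0.02, -0.03 and -0.25 (adjusted p = 0.902, 0.856 and 0.313).

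Of 20 other steroid enzymes with a probe set 10 were tested and 0 called, with 5 at an unadjusted p under 0.05 (25.0% of all genes tested reached it). Hsd17b11 differed by -0.44 (adjusted p = 0.0611), Srd5a3 by -0.66 (0.125), Hsd3b7, an enzyme of bile acid synthesis, by -1.21 (0.161) and the mitochondrial Hsd17b10 by -0.20 (0.162). In 6 of the 10 the groups did not overlap with the treated arrays lower, against 31.8% of all genes tested, and in 0 with them higher, against 24.8%. The other Hsd17b genes tested (Hsd17b4, Hsd17b7, Hsd17b10, Hsd17b11 and Hsd17b12) differed by -0.44 to 0.03. Among the binding proteins and receptors of the products, Shbg, the sex hormone binding globulin, read 13.12 and 13.19 with vehicle and 12.14 and 12.06 with WIN 18,446 (difference -1.06, adjusted p = 0.00869). Gper1, a membrane receptor for estrogen, read 5.85 and 6.22 against 8.91 and 9.20 (difference 3.01, adjusted p = 0.0105), from an _x_at probe set. Esr1, the estrogen receptor alpha, differed by 0.14 (adjusted p = 0.696).

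**Figure D3:**
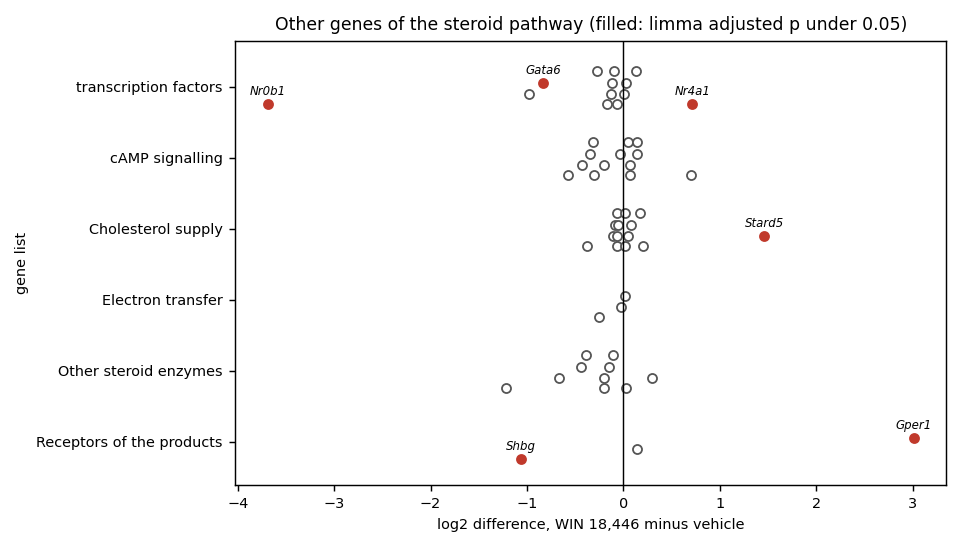
Log2 difference between treated and vehicle means for the 56 tested genes of the pathway list, by role (1 point per gene; filled red points were called by limma at an adjusted p under 0.05; vertical scatter within a row has no meaning). Nr0b1 at -3.69 and Gper1 at 3.01 lie farthest out, and the unfilled points of the enzymes lie mostly left of 0.

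Markers of the cells in the tissue were read beside these results. Leydig markers were present: none of the 6 measured was near background, and their mean log2 level was 12.32 and 12.03 with vehicle, against 11.99 and 11.82 with WIN 18,446. The 2 of them that are no steroid synthesis genes of the list above, Nr5a1 and Thbs2, differed by -0.10 and -0.09 (adjusted p = 0.597 and 0.512). The adrenal enzymes Cyp21a1, Cyp11b1 and Cyp11b2 and the receptor Mc2r read 1.98 to 2.12, below the bacterial controls, but for 2.65 for Cyp21a1 on treated array 1. Mrap, an accessory protein of that receptor, differed by -0.76 (adjusted p = 0.0638). Of the genes more typical of adult Leydig cells, Sult1e1 was below the bacterial controls on every array, and limma called 0 of 4 tested (1 of them Hsd17b3). Vcam1, at 0.51, was at an unadjusted p of 0.0237. The 4 had a median difference of 0.40, with list means of 11.14 and 11.55 with vehicle and 11.62 and 11.98 with WIN 18,446. In 3 of the 4 the treated arrays were higher without overlap, against 24.8% of all genes tested. These were Hsd17b3, Vcam1 and Ptgds (0.11), while Akr1c14 (0.29) overlapped. Hsd17b3 enters the median, the means and this count, so they are not separate from its own result.

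Of 12 Sertoli markers, which matter for the reductases, 5 fell and 7 were not called, against 6.40% of genes called overall. The list's mean level was 13.17 and 13.16 with vehicle and 12.94 and 12.87 with WIN 18,446. The fate regulator Sox9 fell by 1.15 (adjusted p = 0.0121) and Cldn11, a tight junction claudin, by 1.25 (adjusted p = 0.00781). Amh, the anti-Müllerian hormone, read 9.37 and 9.85 with vehicle and 11.12 and 10.60 with WIN 18,446 (difference 1.25, adjusted p = 0.0575). It was thus higher on the treated arrays, as Hsd17b1 was. Inhbb (0.15) and Clu (0.06) were also higher on both treated arrays and not called (adjusted p = 0.168 and 0.464). The 5 calls were thus all lower, while Hsd17b1 and Hsd17b3 lay higher, and the part of Sertoli cell number in the result was not tested. Endothelial markers were also lower, with a median difference of -0.96 over 6 genes, of which Robo4 fell and 5 were not called. Their mean was 8.39 and 8.82 with vehicle and 7.68 and 7.56 with WIN 18,446, and the part of this in the lower levels of the Leydig cell genes was not tested. Des fell among 4 peritubular genes (list means 10.97 and 11.14 against 10.56 and 10.37), and Sall4 and Tdrd9 among 7 germ cell genes (11.07 and 11.05 against 10.95 and 10.92). The germ cell genes went both ways, with a median difference of 0.02. Ddx4, Dazl and Zbtb16 were higher on both treated arrays (0.24, 0.29 and 0.25) and not called. Neither of 2 macrophage genes tested was called, nor was Krt18, the 1 tested of 6 mesothelial or epididymal genes, and both erythroid genes with a probe set were below the bacterial controls. As with the pathway genes, calls without a vehicle array draw their spread from the treated arrays alone and are not compared here. Without vehicle array 1 and without vehicle array 2, Sox9 still differed by -1.08 and -1.22 and Cldn11 by -1.21 and -1.29.

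**Figure D4:**
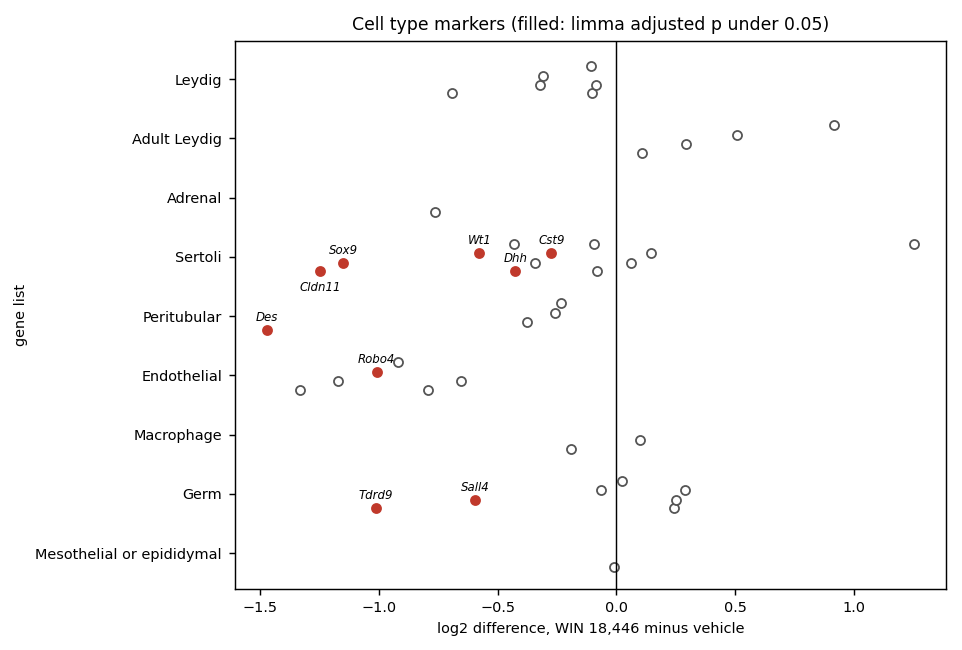
Log2 difference between treated and vehicle means for the tested markers of each cell type (1 point per gene; filled red points were called by limma at an adjusted p under 0.05; vertical scatter within a row has no meaning). The 6 Leydig markers lie between -0.69 and -0.09 with none called, and the Sertoli markers spread from -1.25 for Cldn11 to 1.25 for Amh.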

How the data were processed

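Per the labels' protocols, about 100 ng of total RNA per sample was amplified with NuGEN's Ovation kit, and the labelled cDNA was hybridised. The authors deposited 1 table of log2 levels, a column per array, already normalized between arrays; RMA and GCRMA both stand in the submitters' processing notes, with nothing on which was used. The values show the scale (1.74 to 16.24, array medians 3.72 to 3.83); they are not centred. Genes were named through GEO's array annotation.

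The 64 control probe sets were left out, and 20895 of the 45037 others, whose mean level reached 5, entered 1 fit in limma 3.58.1 under R 4.3.3 (lmFit, eBayes with a variance trend; 2 residual and 3.19 prior degrees of freedom), two-sided, with Benjamini-Hochberg adjustment over all of them. Called, rose and fell mean an adjusted p under 0.05. A gene with several probe sets stands for itself by the brightest. An exact permutation test cannot go below 0.333 here. The fit was tested on simulated data. Named are all members, the pathway genes called and up to 4 per role by p, the 5 genes nearest to Hsd17b1, and markers; Nr5a1, the family members at background and the markers were picked with values known. The members and lists were chosen with earlier results of these data known. Alternatives were other filters, normalizations, moderation and thresholds, a replicate block, 1 probe set per gene, and each array left out, the lone array being assumed to vary like the other group.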

Additional observations from a re-analysis of the deposited data

How the results depend on the processing

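The number of genes called depends on the settings and on which arrays are kept. Of all probe sets limma called 1083; the count was 3 without a level filter, 372 without a variance trend and 2216 at an adjusted p under 0.10, and 0 to 1398 when an array was left out. With an array left out the spread comes from the other group alone, so these counts do not measure the effect of that array's values. Of the 8 steroid synthesis genes 0 were called; leaving out an array gave 0 in each case (2 to 6 at an unadjusted p under 0.05). Hsd17b1 alone was called, a count of 1, with 1 probe set per gene, with 2 of the 4 arrays at 5 or above, with equal array medians, with a mean of at least 7, with quantile normalization again and with robust moderation, and 2 were called at an adjusted p under 0.10 (Hsd17b1 and Fdx1). With the replicate number as a block 3 were called (Hsd17b1, Hsd17b3 and Hsd3b1), and 1467 probe sets in all. The labels give a number alone and leave unsaid whether same-numbered samples were handled together. Same-numbered arrays deviated from their group means with a correlation of 0.01, which does not settle this for these genes. Of the pathway list 6 were called, 5 with the block, 4 without a variance trend, 0 without a level filter (18 at an unadjusted p under 0.05), and 0 to 8 when an array was left out. Of the markers 9 were called, 14 with 1 probe set per gene, 14 at an adjusted p under 0.10, 3 without a variance trend, 0 without a level filter (23 at an unadjusted p under 0.05), 13 with the block, and 0 to 8 when an array was left out. Signs turned when an array was left out for 2 of the 13 steroid synthesis probe sets and for 18 of the 56 pathway genes, 0 of them called. Among them were the dim probe set of Star (range -0.16 without vehicle array 2 to 0.28 without vehicle array 1, and -0.01 without treated array 2), that of Cyp17a1 (-0.29 to 0.082, positive without vehicle array 1) and that of Nr5a1 (-0.21 to 0.0037, positive without vehicle array 1). The other 11 steroid synthesis probe sets kept their sign with each array left out, with equal array medians and with quantile normalization again. The remaining alternatives do not alter the difference itself, so they could not turn a sign. The median member difference of -0.25 was little altered by averaging a gene's probe sets (-0.25 as well). Levels near 2.22 cannot be ordered.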
